A study of Drosophila melanogaster with 10 samples.

Results

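The genes described here are 10 that drive and order the cell division cycle: the cyclins CycA, CycB, CycB3 and CycE, the kinases Cdk1, polo, aurA, aurB and BubR1, and the phosphatase stg (string, the Cdc25 of somatic cells). They were chosen by name, with earlier results of these data known. FlyBase symbols for all 10 were matched to an identifier among the 13937 genes measured in each RNA-seq library. Poly(A+) RNA was sequenced from cultured Drosophila S2 cells in 2 groups of 2 biological replicates. In Elys-KD cells, dsRNA against the nucleoporin Elys was given and then given again, and control cells received dsRNA against LacZ, a bacterial gene that flies lack, on the same schedule. Both groups are the same cell line, and no sorting or arrest by phase of the cycle is described, so each value is an average over the cells of a culture in whatever phase they were.

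Progress through the cycle is set by cyclin-dependent kinases, which act only when a cyclin is bound to them. CycE with Cdk2 drives entry into S phase, while CycA, CycB and CycB3 with Cdk1 drive entry into and passage through mitosis. Cdk1 is held inactive by phosphorylation until String removes these phosphates, and in many Drosophila cells transcription of stg sets the time of mitosis. Polo, Aurora A and Aurora B then act on centrosomes, spindle and chromosomes, and BubR1 belongs to the spindle checkpoint that delays anaphase. Much of this control acts on protein stability and phosphorylation, which RNA-seq does not measure.

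The agent that defines the Elys-KD group is shown here because every comparison rests on it. The dsRNA was made from a PCR product of Elys, a gene of the X chromosome, with these primers, from which the promoter tail they share with the Lam primers was removed. The capitals mark the Elys-specific bases, written 5′ to 3′.
Elys dsRNA forward primer: CGCCAGAGCAGCAGTTCGCCAC
Elys dsRNA reverse primer: GCCGAGGACACGTTCGAGTCTTCGC

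The deposited estimated counts summed to 57622326 to 58200996 in the Elys-KD libraries and to 61350395 to 68034643 in the control libraries. Expression is given in TPM (transcripts counted per gene length and scaled to a fixed total per library), and fold changes come from edgeR's quasi-likelihood test on 9156 genes that passed its filter on low counts, all 10 genes included. Elys itself had 4.96 and 4.55 TPM in Elys-KD cells, against 28.3 and 30.2 TPM in control cells, a log2 fold change of -2.67 (SE 0.046, adjusted p = 1.3e-06). The mean fragment length implied by the files was 185 bp in both Elys-KD libraries, against 204 and 206 bp in the control libraries, so it moved with the groups. When the resulting effective lengths entered the fit, 1542 genes were called, against 1523 without them, and of the 10 genes CycB3 was no longer called. Of 11 hemocyte markers, which fit the origin of S2 cells, 6 exceeded 10 TPM in every library, and their summed level was 638 and 618 TPM in Elys-KD cells, against 578 and 590 TPM in control cells (3 higher and 1 lower of 10 tested). NimC1, one of them, was at 0 in 3 libraries and at 0.0087 TPM in control replicate 1. Of 10 matched markers of other cell types, 8 stayed under 1 TPM everywhere, Cpr47Ea was at 0 in all libraries, and the germ-line gene bam, at 43.2 to 54.8 TPM, made up most of their sum of 50.5 and 46.9 TPM in Elys-KD cells, against 57.1 and 59.3 TPM in control cells. The part of these markers in the results below was not tested.

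All 10 genes were expressed in S2 cells. In both groups polo stood first and CycB3 last, with 204 ± 5.21 and 17.8 ± 1.38 TPM in Elys-KD cells and 203 ± 5.44 and 19.6 ± 0.77 TPM in control cells (SD, n = 2). Measured by control TPM, CycB3 lay at percentile 47.8 of the tested genes and polo at percentile 93.1. A group of close levels followed polo, made up of CycB, Cdk1, CycA and aurB, all between 120 and 141 TPM in Elys-KD cells and between 129 and 152 TPM in control cells. Within it, the replicate ranges of Cdk1 and CycA overlapped in Elys-KD cells, whereas no neighbours in the order overlapped in control cells. The order changed at 2 places. Aurora B stood just below CycB in Elys-KD cells, above Cdk1 and CycA, whereas it stood below both in control cells. The level of stg stood just below that of aurA in Elys-KD cells, where their replicates overlapped, and above it in control cells. Together the 10 genes took 916 and 879 TPM in the Elys-KD libraries, against 964 and 990 TPM in the control libraries.

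Upon Elys-KD, 6 of the 10 genes fell and none rose in edgeR's quasi-likelihood test (adjusted p under 0.05 over all tested genes). The 6 were stg, all 4 cyclins and Cdk1. Across all tested genes 16.6% were called, with 8.07% higher and 8.56% lower in Elys-KD, and among genes of at least 10 TPM on average 19.1% were called. No gene of the 10 was higher at an unadjusted p under 0.05, and 0 were higher with DESeq2, which called 6 lower. The median log2 fold change of the 10 genes was -0.17, against 0.00027 over all tested genes. The 10 genes were chosen with earlier results of these data known, so their comparison with all tested genes is a description. When a ratio of mean TPM over 1.5 was asked for beside edgeR's adjusted p, only stg was called, against 3.19% of tested genes. In CPM, counts were scaled to library size adjusted by edgeR's TMM factors, but not to gene length. On this scale both Elys-KD libraries lay outside the range of both control libraries for all 10 genes. However, this also held for 60.5% of all tested genes. In TPM it held for 7 of the 10, against 59.1% of tested genes. Fewer of the 10 genes were called with either control library left out, and fewer of all tested genes were called then too. With each library left out in turn, the median log2 fold change of the 10 genes stayed between -0.18 and -0.13. In bulk RNA, fewer cells in a phase of the cycle and less RNA of a gene per cell cannot be told apart. By flow cytometry of DNA content, the paper found only minor differences in cell cycle progression between Elys-KD and control S2 cells. How such differences bear on these RNA levels was not tested.

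**Figure D1:**
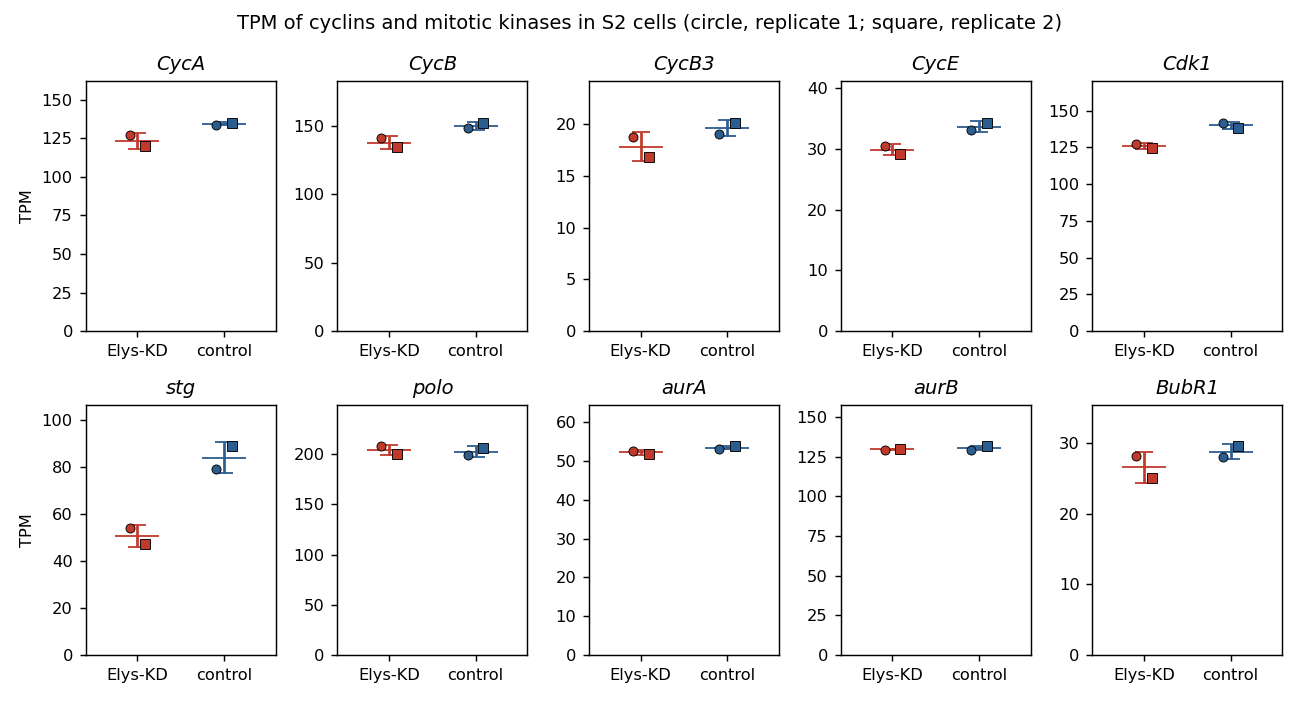
TPM of the 10 genes in each library, with Elys-KD left of control in every panel and each vertical axis starting at 0. Circles are replicate 1, squares are replicate 2, and horizontal and vertical bars give the mean and the SD (n = 2). Only for stg is the gap between the groups wide at this scale, with 47.4 to 53.9 TPM in Elys-KD and 79.4 to 88.8 TPM in control.

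The gene with the largest change of the 10 was stg (FBgn0003525, arm 3R), which encodes the phosphatase that activates Cdk1. It had 53.9 and 47.4 TPM in Elys-KD cells, against 79.4 and 88.8 TPM in control cells. Both Elys-KD libraries were low and both controls high, with no overlap. Mean TPM in Elys-KD was 0.603 of control, and the log2 fold change was -0.77 (SE 0.064, 95% interval -0.92 to -0.62, adjusted p = 0.00063 from edgeR). The estimated counts behind it were 7998 and 7141 in Elys-KD and 14184 and 14072 in control. The replicates of stg also differed among themselves, by 0.15 on the log2 CPM scale between Elys-KD replicates and by -0.13 between control replicates (replicate 1 minus replicate 2), which is several times less than the difference between the groups. With each library left out in turn the log2 fold change stayed between -0.85 and -0.70, and stg was called in each of these fits. Its interval did not reach that of any other of the 10 genes, of which CycE came closest with a lower bound of -0.30. The other phosphatase of this family, twe, had 3.55 and 3.29 TPM in Elys-KD cells, against 3.23 and 2.90 TPM in control cells (log2 fold change 0.05, adjusted p = 0.78). Wee1 and Myt1, the kinases that place the phosphates which String removes, had log2 fold changes of -0.058 (adjusted p = 0.39) and 0.019 (adjusted p = 0.75). These 3 genes were chosen for their role after their values were seen.

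CycE (FBgn0010382, arm 2L), the cyclin of S-phase entry, had the next largest change. Its TPM was 30.5 and 29.2 in Elys-KD cells, against 33.1 and 34.3 in control cells. The groups did not overlap, and the log2 fold change was -0.22 (SE 0.033, 95% interval -0.30 to -0.14, adjusted p = 0.0067 from edgeR). Only without control replicate 2 was CycE not called (-0.20, adjusted p = 0.052), while its value stayed between -0.23 and -0.20 with each library left out in turn.

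The mitotic cyclins fell too. CycA (FBgn0000404, arm 3L), which acts in S phase and early mitosis, had 127 and 120 TPM in Elys-KD cells, against 134 and 135 TPM in control cells. CycB (FBgn0000405, arm 2R), a mitotic partner of Cdk1, had 140.9 and 134.4 TPM in Elys-KD cells, against 148.1 and 152.3 TPM in control cells. CycB3 (FBgn0015625, arm 3R), a B-type cyclin that acts in anaphase, had 18.8 and 16.8 TPM in Elys-KD cells, against 19.1 and 20.1 TPM in control cells. In each case both Elys-KD libraries lay below both controls, narrowly so for CycB3. The log2 fold changes were -0.17 for CycA (SE 0.035, adjusted p = 0.020), -0.17 for CycB (SE 0.033, adjusted p = 0.019) and -0.18 for CycB3 (SE 0.048, adjusted p = 0.048). CycA and CycB were not called without control replicate 1 (-0.16 and -0.17) or without control replicate 2 (-0.17 and -0.16). Nor were they called with replicate number as a second term in edgeR's fit (adjusted p = 0.071 and 0.076). CycB3 sat at the threshold and was called in only 2 of the 10 fits with another tool, scaling or filter or without a library, with an adjusted p of up to 0.19 without Elys-KD replicate 2, where its log2 fold change was -0.12.

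Cdk1 (FBgn0004106, arm 2L), the kinase that these cyclins activate, had 127 and 125 TPM in Elys-KD cells, against 142 and 139 TPM in control cells. The groups did not overlap. Its log2 fold change was -0.17 (SE 0.036, 95% interval -0.26 to -0.087, adjusted p = 0.022 from edgeR). The call was lost without control replicate 1 (-0.14) and without control replicate 2 (-0.20). It was also lost with replicate number as a second term in edgeR's fit (adjusted p = 0.056).

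Polo and the Aurora kinases were not called. Polo (FBgn0003124, arm 3L), which acts on centrosomes, kinetochores and cytokinesis, had 208 and 201 TPM in Elys-KD cells, against 199 and 207 TPM in control cells. For aurA (FBgn0000147, arm 3R), a kinase of centrosome maturation and spindle assembly, TPM was 52.7 and 51.7 in Elys-KD cells, against 53.1 and 53.7 in control cells. Aurora B (aurB, FBgn0024227, arm 2L), the kinase of the chromosomal passenger complex, had 129 and 130 TPM in Elys-KD cells, against 129 and 131 TPM in control cells. TPM values of the groups overlapped for polo and aurB and lay close together for aurA. Log2 fold changes were -0.040 for polo (95% interval -0.12 to 0.036, adjusted p = 0.44), -0.064 for aurA (-0.14 to 0.011, adjusted p = 0.22) and -0.031 for aurB (-0.11 to 0.049, adjusted p = 0.58). The sign for polo depended on the scale, since on the log2(mean TPM + 1) scale it was 0.0098. These intervals leave out a fall the size of that of stg, but they overlap the intervals of CycA (-0.25 to -0.086) and CycB (-0.24 to -0.087).

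BubR1 (FBgn0263855, arm 2R), the checkpoint kinase, had 28.1 and 25.0 TPM in Elys-KD cells, against 28.1 and 29.5 TPM in control cells. Elys-KD replicate 2 was low, whereas Elys-KD replicate 1 lay within the control range. The log2 fold change of -0.16 was the size of that of CycA and CycB, but its error was larger (SE 0.05) and it was not called (adjusted p = 0.069 from edgeR). Without Elys-KD replicate 1 it was -0.23 (adjusted p = 0.011), without Elys-KD replicate 2 it was -0.097 (adjusted p = 0.21), and DESeq2 called it (adjusted p = 0.021), so the call for BubR1 depended on a library and on the tool.

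**Figure D2:**
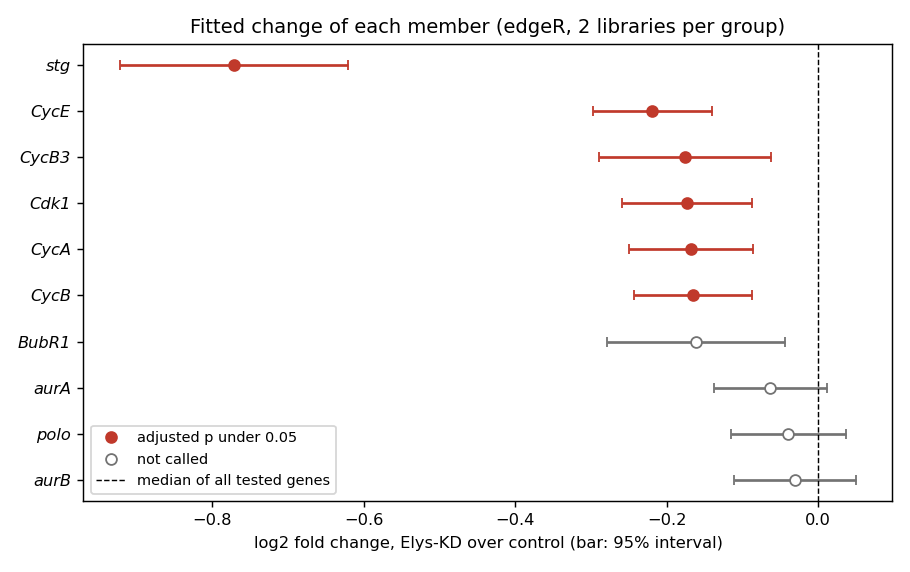
Fitted log2 fold change (Elys-KD over control) of each gene with its 95% interval, ordered by size, where filled red points were called at an adjusted p under 0.05 and the dashed line is the median of all 9156 tested genes. The point of stg, at -0.77, stands apart from the other 9 genes, which lie between -0.22 and -0.031.

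Ratios between genes within a library do not depend on the scaling of that library. The ratio of CycB to CycA was 1.11 and 1.12 in Elys-KD cells, against 1.11 and 1.13 in control cells, and that of CycA to Cdk1 was 0.997 and 0.96 in Elys-KD cells, against 0.942 and 0.974 in control cells. Thus the mitotic cyclins and their kinase kept overlapping proportions. In contrast, the ratio of stg to Cdk1 was 0.424 and 0.38 in Elys-KD cells, against 0.56 and 0.641 in control cells, and the groups did not overlap. The ratio of aurA to aurB was 0.408 and 0.399 in Elys-KD cells, against 0.411 and 0.409 in control cells, which is a small difference, though without overlap. Likewise without overlap, the ratio of CycE to CycA was 0.241 and 0.244 in Elys-KD cells, against 0.248 and 0.254 in control cells. That of polo to aurA, also without overlap, was 3.95 and 3.88 in Elys-KD cells, against 3.75 and 3.85 in control cells. The ratios of CycB3 to CycA, CycB to Cdk1 and BubR1 to aurB overlapped between the groups. For single genes, TPM of the groups did not overlap for 59.1% of all tested genes. With 2 libraries in each group, the smallest value that an exact two-sided permutation test of a ratio can give is p = 0.333.

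Among the 10 genes, CycA, CycE and aurA overlap another gene in the Release 6 annotation, and whether the counting used strand is not given in the sources used here. CG12213, which overlaps aurA, had 106 and 105 TPM in Elys-KD cells, against 106 and 109 TPM in control cells (log2 fold change -0.058, adjusted p = 0.28), so reads could be shared between these abundant genes and the value of aurA is less certain. CG7264, which overlaps CycA, stayed at 0.777 to 1.00 TPM, far below CycA. The RNAs that overlap CycE, lncRNA:CR44974 and asRNA:CR44866, were not analysed here.

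Around these 10 genes, 154 other cell-cycle genes in 10 lists gave 147 tested genes, and 25 of these (17.0%) were called, 2 as higher and 23 as lower in Elys-KD. This total is close to the 16.6% of all tested genes that were called. The direction differed, since 8.07% of all genes were higher and 8.56% lower. The lists too were chosen with earlier results of these data known, so this difference is a description. List by list, the share called was 13.3% (other cyclins and Cdks), 27.3% (Cdk1 and Cdk2 regulators), 26.3% (replication) and 10% (E2F, RB and Myb). It was 0% (anaphase-promoting complex), 17.6% (checkpoint and kinetochore) and 6.67% (passengers and cytokinesis). It was 10.5% (centrosome and spindle), 27.8% (sister chromatids) and 33.3% (DNA damage). The median log2 fold change of the 147 genes was -0.058, and none of them also passed the TPM ratio of 1.5. At an unadjusted p under 0.05, 8 were higher and 44 lower, and DESeq2 called 2 higher and 24 lower. The number called was 24 without Elys-KD replicate 1, 12 without Elys-KD replicate 2, 7 without control replicate 1 and 6 without control replicate 2. With library totals alone, 16 were called.

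Other cyclins and Cdks gave 2 lower genes of 15 (1 with DESeq2). Cdk2, the partner of CycE, had 64.4 and 64.3 TPM in Elys-KD cells, against 71.2 and 71.8 TPM in control cells (log2 fold change -0.19, adjusted p = 0.010), and CycJ had a log2 fold change of -0.17 (adjusted p = 0.028). Among 11 regulators of Cdk1 and Cdk2, 3 were lower. The largest change was that of dap (dacapo), the inhibitor of CycE-Cdk2, with 44.3 and 43.1 TPM in Elys-KD cells, against 54.5 and 57.2 TPM in control cells (log2 fold change -0.39, SE 0.034, adjusted p = 0.00073). So both the cyclin of S-phase entry and its inhibitor fell. The others were the phosphatase 2A subunits mts and tws (-0.13 and -0.14, adjusted p = 0.032 and 0.046).

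Of 19 tested replication genes, 5 were lower and none higher, and all 19 had a fitted log2 fold change below 0, as had 49.8% of all tested genes (12 were lower and 0 higher at an unadjusted p under 0.05, and DESeq2 called 4 lower and 0 higher). RnrS, the small subunit of ribonucleotide reductase, had 364 and 359 TPM in Elys-KD cells, against 450 and 462 TPM in control cells (log2 fold change -0.37, SE 0.03, adjusted p = 0.00060). Cdc7, a kinase that fires origins, Orc6 of the origin recognition complex and Mcm5 of the replicative helicase had log2 fold changes of -0.20, -0.17 and -0.15 (adjusted p = 0.016, 0.022 and 0.028). Of 10 genes of the E2F, RB and Myb complexes, which control transcription of S-phase and mitotic genes, 1 was lower, the E2F partner Dp (-0.15, adjusted p = 0.033).

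No gene of the anaphase-promoting complex, which marks cyclins for destruction, was called by edgeR or DESeq2 among 14 tested, and 1 was higher and 0 lower at an unadjusted p under 0.05. That gene was APC7 (0.32, adjusted p = 0.053), with 4.19 and 4.24 TPM in Elys-KD cells, against 3.28 and 3.37 TPM in control cells, and edgeR called it higher with library totals alone (adjusted p = 0.042) and without Elys-KD replicate 1 (adjusted p = 0.048). The activator of this complex, fzy (Cdc20), which BubR1 holds in check, had a log2 fold change of 0.013 (adjusted p = 0.84) and was chosen after its values were seen. Of 17 checkpoint and kinetochore genes, 3 were lower, namely cal1, which loads the centromeric histone, Spc105R and Mis12 of the outer kinetochore network (-0.21, -0.19 and -0.15, adjusted p = 0.011, 0.027 and 0.036). DESeq2 called 2 of this list lower and did not call Mis12 (adjusted p = 0.094). The checkpoint genes mad2 and Bub3, chosen after their values were seen, had log2 fold changes of 0.020 and -0.066 (adjusted p = 0.80 and 0.22). Sister chromatid genes gave 4 lower and 1 higher of 18. The securin pim, which guards separase until anaphase, had 37.1 and 38.7 TPM in Elys-KD cells, against 52.2 and 47.7 TPM in control cells (log2 fold change -0.42, SE 0.058, adjusted p = 0.0051). Nipped-B, the cohesin loader, and the cohesin subunit SA had log2 fold changes of -0.23 and -0.15 (adjusted p = 0.0076 and 0.037). Condensin subunits went both ways. The subunit glu rose, with 45.1 and 41.7 TPM in Elys-KD cells, against 32.7 and 36.9 TPM in control cells (0.28, adjusted p = 0.019). Another, barr, chosen after its values were seen, was lower (-0.13, adjusted p = 0.041). SMC2, Cap-G, Cap-D2, Cap-H2 and Cap-D3 were not called.

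Of 19 centrosome and spindle genes 2 were lower, the centriole kinase SAK and the spindle-pole protein asp (both -0.16, adjusted p = 0.028 and 0.043). Of 15 chromosomal passenger and cytokinesis genes 1 was lower, pbl, which is needed for cytokinesis (-0.14, adjusted p = 0.041), whereas DESeq2 called 3 lower. Incenp, the partner of Aurora B, chosen after its values were seen, had 154 and 149 TPM in Elys-KD cells, against 143 and 149 TPM in control cells (log2 fold change 0.014, adjusted p = 0.81). Of 9 DNA damage genes 2 were lower, the checkpoint kinases tefu and grp (-0.23 and -0.15, adjusted p = 0.0097 and 0.032), and mre11, a subunit of the complex that senses breaks, was higher (0.17, adjusted p = 0.037). Of the 23 genes named here as called in these lists (barr aside), 20 were lost in at least 1 of 10 other fits. These fits used another tool, scaling or filter or left out a library. The genes dap, RnrS and pim were called in all 10.

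**Figure D3:**
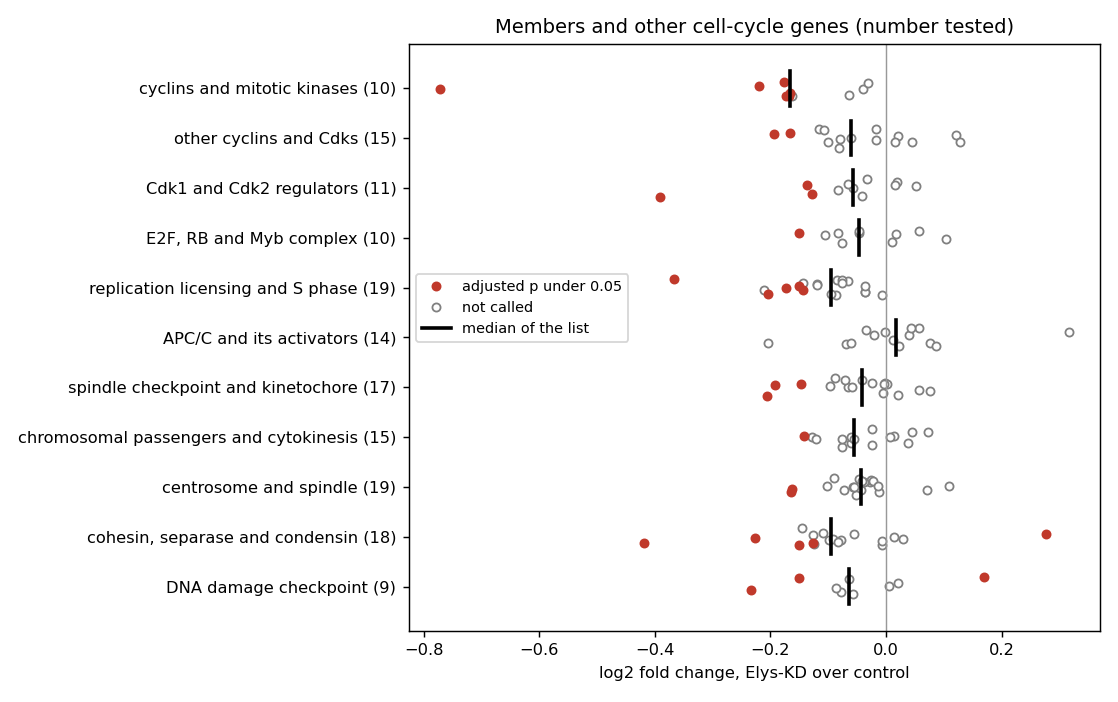
Log2 fold change (Elys-KD over control) of each tested gene in the 10 cyclins and mitotic kinases (top) and in the 10 lists of other cell-cycle genes, with the number tested in parentheses, filled red points for an adjusted p under 0.05 and a black bar for the median. Medians of the lists lie between -0.096 and 0.018, against -0.17 for the cyclins and mitotic kinases. Points are spread vertically at random for legibility.

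Averaged over the 10 genes, log2 CPM lay 0.075 and 0.12 below the mean of the 4 libraries in Elys-KD replicates 1 and 2, and 0.088 and 0.11 above it in control replicates 1 and 2. The 5 genes of all tested whose values over the 4 libraries came closest to this pattern (Euclidean distance of 0.012 to 0.017 on the log2 scale) were Noc3, CG6321, Tom40, Glt and Rif1. Rif1 acts on the timing of replication and Tom40 is the import channel of the outer mitochondrial membrane. Their log2 fold changes lay between -0.21 and -0.19. The average they were matched to includes stg, at -0.77, whereas the rest of the 10 genes lay between -0.22 and -0.031. With 4 libraries, this likeness is only a description.

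**Figure D4:**
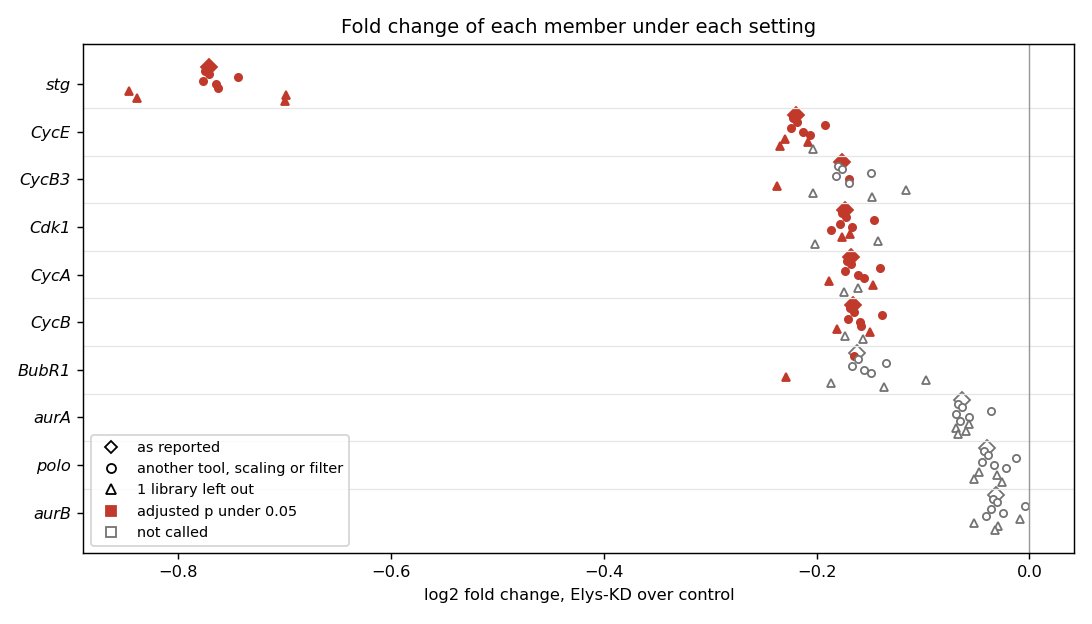
Log2 fold change (Elys-KD over control) of each gene as reported (diamond), with another tool, scaling or filter on low counts (circles) and with 1 library left out (triangles), in filled red where the adjusted p was under 0.05. For stg all points are red and lie between -0.85 and -0.70, those of aurA, polo and aurB are all open, and the cyclins, Cdk1 and BubR1 have both kinds. The fit with replicate number as a second term is not drawn.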

How the data were processed

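The 4 RNA-seq libraries were grouped by GEO's labels, and 6 DamID-seq samples of embryos were not used here. The authors clipped adapters, mapped to dm3/R5, estimated fragments per gene of the FlyBase annotation with Salmon in each library and deposited, for every gene, its estimated count before any normalization and its TPM. Salmon's version is not given in the sources used here. Identifiers were paired with symbols for 13389 of 13937 genes, and of 186 listed genes 178 were matched. The files give no positions, so none are printed.

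Estimated counts were rounded and compared in R 4.3.3 with edgeR 4.0.16 (genes kept by filterByExpr, TMM factors, the quasi-likelihood test of glmQLFit and glmQLFTest with group as the only term, and Benjamini-Hochberg adjustment over all 9156 tested genes). Counting error follows from the counts, and p-values measure the spread between 2 replicates per group. For each gene, edgeR moderates this spread with that of the other tested genes. Alternatives were DESeq2 1.42.0, RLE factors, library totals, other filters, effective lengths as an offset, a replicate block, a TPM ratio over 1.5, log2(mean TPM + 1) and each library left out. The fit was also run on counts simulated with the spread that it had estimated. These counts lacked the difference in fragment length between the groups, so that run does not show how reliable small falls are here. Named genes are the 10 genes, Elys, up to 4 called genes per list (or the one of smallest p) and the 5 nearest profiles. Others were added after their values were seen. The genes and lists were chosen with earlier results of these data known. Plots were drawn with Matplotlib 3.10.9.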

Additional observations from a re-analysis of the deposited data

How the results depend on the processing

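Over the 10 genes, the log2 fold change was below 0 in 119 of 120 values from other settings. The exception was polo at 0.0098 on the log2(mean TPM + 1) scale. All these values come from the same 4 libraries, so they are not independent of each other. The number of the 10 genes called lay between 1 and 7 with a library left out and was 1 with the TPM ratio over 1.5. Over all tested genes, 749 to 1511 were called with a library left out and 292 with the TPM ratio. Of the other cell-cycle genes, 6 to 24 were called with a library left out, 16 with library totals alone, and 0 with the TPM ratio. With library totals alone, 63.1% of all calls were higher in Elys-KD, against 48.5% with TMM. The median of the 10 genes lay between -0.18 and -0.13 with a library left out, and was -0.12 on the log2(mean TPM + 1) scale, where Elys was at -2.39. A lone library left in a group is assumed to vary like the other group. Replicate numbers were not used as pairs in the main fit. Deviations of same-numbered libraries from their group means had a correlation of -0.55 across 5949 genes. Same-numbered libraries thus tended to deviate in opposite directions, a shared pattern that the main fit does not model. The replicate block does not model it either, since it allows only shifts in the same direction. With the replicate block, 3 of the 10 genes (CycB3, CycE and stg), 11 other cell-cycle genes and 1104 genes in all were called. The causes of these changes were not tested. With 2 libraries per group, falls as small as those of CycA, CycB, CycB3 and Cdk1 did not stay called in every fit without 1 library.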
